A study of Capra hircus with 3 samples.

Results

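The entries described here were chosen from the product text of the deposited expression table, by wording that names ubiquinol-cytochrome c reductase (respiratory complex III), cytochrome c oxidase (complex IV) or mitochondrial ATP synthase (complex V) and does not contain "-like". The wordings "cytochrome c-1" and "cytochrome c, somatic" were searched too and matched no entry. The members came to 21 of the 24689 entries of the table. Of these, 14 were ATP synthase subunits, 1 was the ATP synthase coupling protein ATP5S, 5 were assembly factor entries of complex IV and 1 was an assembly factor of complex III. The set is therefore mainly ATP synthase. It holds no structural subunit of complex III or IV, because the table words those of complex IV with "-like" and those of complex III in other terms. The 36 entries with the same opening words plus "-like", and the complex III subunits, are given below for comparison. The muscle isoform COX8B and the subunits encoded in mitochondrial DNA were not analysed here.

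Messenger RNA was sequenced from the longissimus dorsi, the long back muscle, of goats (Capra hircus) at 3 postnatal stages: a kid of 2 months, a youth of 9 months and an adult of 24 months, with 1 library per stage. The sources used here do not state breed, sex, treatment or pooling of animals. Without replicates no test could be run, and every difference below is one between libraries with no replicate check. Values are in FPKM, fragments scaled to the length of the gene and to the mapped total, a scale on which different genes can be compared per length.

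The totals of reads behind the FPKM values were 15829474 in kid, 14920689 in youth and 18399385 in adult. For a gene of 1 kb, 3 reads correspond to 0.190 FPKM (kid), 0.201 FPKM (youth) and 0.163 FPKM (adult). Ratios carry an exact (Clopper-Pearson) 95% interval of the reads, which covers counting error only. The labels name longissimus dorsi as the tissue while the extraction text names mammary tissue. Of 6 mammary epithelium markers, the casein genes CSN1S1, CSN2 and CSN3, LALBA and KRT8 were listed at 0 in all 3 libraries, and the list summed to 3.11 FPKM (kid), 1.44 FPKM (youth) and 1.17 FPKM (adult). The 4 matched skeletal muscle markers summed to 41629, 49400 and 54906 FPKM in the same order.

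Mitochondria pass electrons from complexes I and II to complex III, from there by the small carrier cytochrome c to complex IV, which hands them to oxygen, and the protons pumped on the way drive ATP synthase. In ATP synthase a catalytic F1 head is joined to a membrane part, Fo, whose ring of c subunits turns as protons pass and whose peripheral stalk holds the head still. Muscle fibres that work for long periods are rich in these complexes, and striated muscle uses its own forms of several complex IV subunits.

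All 14 ATP synthase subunits were abundant. Their levels ran from 200 to 789 FPKM in kid, from 175 to 667 FPKM in youth and from 239 to 978 FPKM in adult. Together they summed to 5992 FPKM (kid), 5173 FPKM (youth) and 7105 FPKM (adult), which was 1.14%, 0.993% and 1.31% of all FPKM of each library. In 12 of the 14 the youth library was the lowest and the adult library the highest. This order held for 16 of the 20 members whose mean level reached 1 FPKM, and for 19.9% of all 12121 entries above the same limit. In bulk tissue, fewer muscle fibres and less RNA per fibre cannot be told apart.

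**Figure D1:**
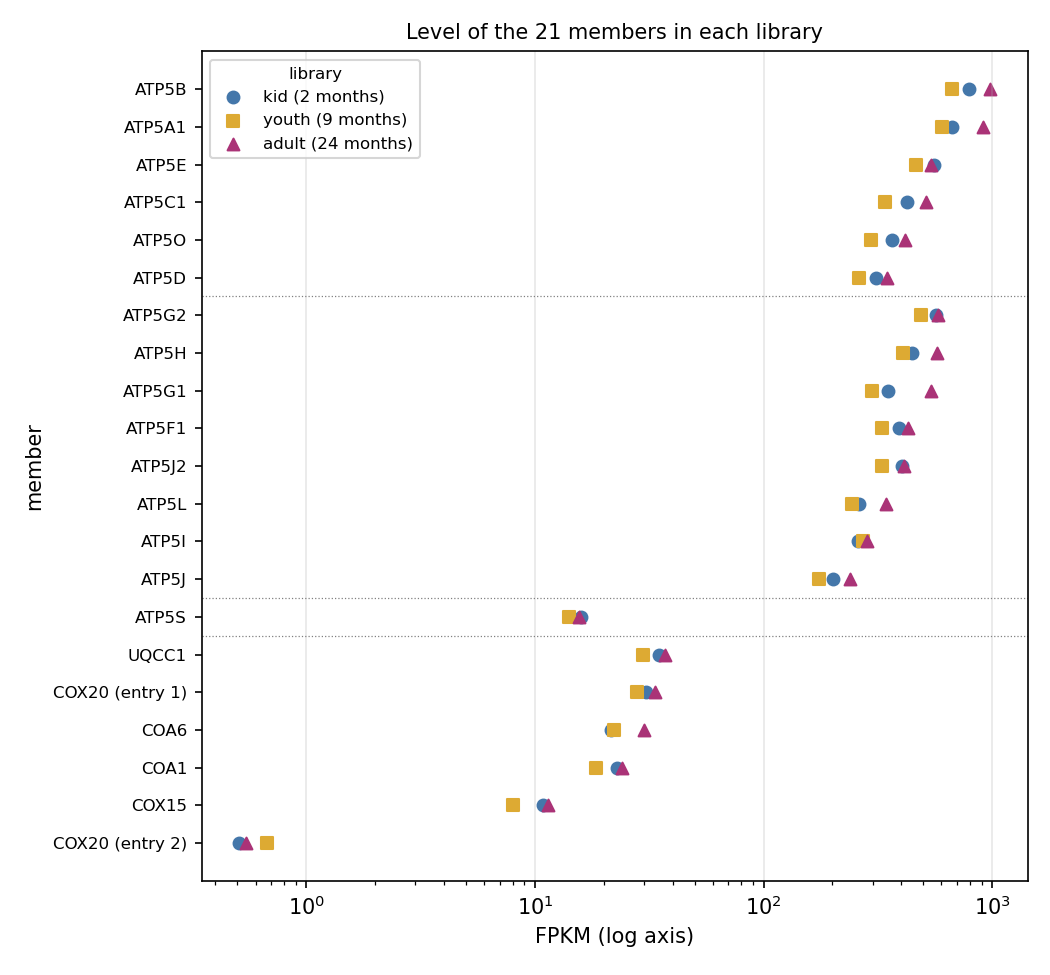
FPKM (log axis) of each of the 21 members in the kid, youth and adult libraries, 1 point per library, with no replicates. Dotted lines part, from the top, the F1 head with ATP5O, the other ATP synthase subunits, ATP5S and the assembly factors. The ATP synthase subunits lie between 175 and 978 FPKM and the assembly factors, apart from the second COX20 entry, between 8.01 and 37.2 FPKM.

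The F1 head held the most abundant members. ATP5B, the catalytic beta subunit, was at 789 FPKM (kid), 667 FPKM (youth) and 978 FPKM (adult), from 23082, 18384 and 33240 reads. It ranked 81st, 91st and 63rd among all entries of the 3 libraries. ATP5A1, the alpha subunit that alternates with beta around the head, was at 666, 604 and 913 FPKM. The FPKM of alpha over that of beta was 0.843 in kid, 0.905 in youth and 0.933 in adult. ATP5C1, the gamma subunit that forms the rotating shaft, was at 423, 339 and 512 FPKM in the same order, and beta over gamma stayed between 1.87 and 1.97.

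The remaining head subunits and the top of the stalk lay in a similar range. ATP5E, the epsilon subunit at the foot of the shaft, was at 556 FPKM (kid), 462 FPKM (youth) and 541 FPKM (adult). It was the only ATP synthase subunit that was lower in adult than in kid, with a ratio of 0.973 (0.928 to 1.019) whose interval includes 1. After scaling by size factors it lay on the other side of 1. Epsilon over gamma was 1.31 in kid, 1.37 in youth and 1.06 in adult, the adult value being the lowest. ATP5D, the delta subunit of the shaft, was at 312, 262 and 346 FPKM, and ATP5O, which caps the stalk on the head, was at 364, 295 and 417 FPKM in kid, youth and adult.

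In the membrane part, ATP5G1, one of the genes for subunit c, had the largest difference of all members in both comparisons with the adult library. Subunit c is made from several nuclear genes that differ in the import signal and give the same mature protein in mammals. ATP5G1 was at 350 FPKM (kid), 298 FPKM (youth) and 542 FPKM (adult), from 3448, 2763 and 6202 reads. ATP5G2 was at 568, 487 and 581 FPKM. ATP5G3, whose product text falls outside the chosen wording, was at 314, 260 and 453 FPKM. The 3 genes summed to 1233 FPKM (kid), 1045 FPKM (youth) and 1576 FPKM (adult).

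The share of ATP5G1 in that sum was 28.4% in kid, 28.5% in youth and 34.4% in adult, while ATP5G2 made up 46.1%, 46.6% and 36.9%. Set against each other, ATP5G1 made up 38.1% of the pair in kid (37.1 to 39.1), 37.9% in youth (36.8 to 39.0) and 48.3% in adult (47.4 to 49.1). The kid and youth shares differed by less than their counting intervals, and the adult share lay above both. The summed c genes over beta were 1.56 in kid, 1.57 in youth and 1.61 in adult. Reads that match more than 1 of these related genes could be split between them by the counting method, which the sources used here do not state.

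ATP5I, the e subunit that helps hold ATP synthase dimers together, varied least among the subunits. It was at 259 FPKM (kid), 272 FPKM (youth) and 283 FPKM (adult), from 857, 848 and 1088 reads on a gene of 209 bases. All 3 of its ratios had intervals that included 1: 1.05 (0.954 to 1.16) for youth over kid, 1.04 (0.9502 to 1.14) for adult over youth and 1.09 (0.998 to 1.20) for adult over kid. After quantile normalization it was lower in adult than in youth. The peripheral stalk subunits ATP5F1, ATP5H and ATP5J and the small membrane subunits ATP5J2 and ATP5L were at 200 to 447 FPKM in kid, 175 to 409 in youth and 239 to 573 in adult. Each of these 5 was lowest in youth and highest in adult. ATP5S, a coupling protein linked to ATP synthase but far less abundant than its subunits, was at 16.0 FPKM (kid), 14.1 FPKM (youth) and 15.6 FPKM (adult), and all 3 intervals included 1. Its adult over kid ratio of 0.976 moved above 1 with size factors and with quantile normalization.

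The assembly factors were about an order of magnitude less abundant than the subunits. UQCC1, a chaperone for the synthesis of cytochrome b of complex III, was at 34.9 FPKM (kid), 29.6 FPKM (youth) and 37.2 FPKM (adult). COX20, which escorts a newly made core subunit of complex IV, was at 30.6, 28.0 and 33.4 FPKM. COA6, which takes part in delivering copper to complex IV, was at 21.6 FPKM (kid), 22.1 FPKM (youth) and 30.0 FPKM (adult). COX15, which makes the heme of complex IV, was at 10.9, 8.01 and 11.4 FPKM. COA1, an early assembly factor of complex IV, was at 22.8 FPKM (kid), 18.5 FPKM (youth) and 24.1 FPKM (adult). COA6 thus had like levels in kid and youth and a higher one in adult, and the other 4 were lowest in youth. A second entry worded as COX20 was at 0.508, 0.674 and 0.547 FPKM from 4, 5 and 5 reads. It stayed below the limit of 1 FPKM and entered no comparison.

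The youth library was set against the kid library, which covers the step between 2 and 9 months. Of the 20 members above the limit, 18 were lower in the youth library and 2, ATP5I and COA6, were higher, where 64.3% of all entries were lower and 35.7% higher. The members' median difference was -0.23 on the scale of log2(FPKM + 1), against -0.08 for all entries. None of the 20 was 1.5-fold apart, while over all entries 1.5% were higher and 3.77% lower by that fold or more. With quantile normalization those shares of all entries were 2.52% and 2.39%, and the members' median was -0.14.

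The lowest ratio among the ATP synthase subunits was that of ATP5C1, at 339 FPKM in youth against 423 in kid (0.800, 0.771 to 0.831). ATP5B was at 667 against 789 FPKM (0.845, 0.829 to 0.862) and ATP5A1 at 604 against 666 FPKM (0.908, 0.889 to 0.927). The F1 head with ATP5O summed to 2629 FPKM in youth against 3110 in kid, and the other 8 subunits to 2543 against 2882 FPKM. Both parts were thus lower in youth, with ratios of 0.845 and 0.883. Among the assembly factors COX15 had the lowest ratio (0.735, 0.649 to 0.832), and COA6 the highest (1.02, 0.844 to 1.24), with an interval that includes 1.

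The adult library was set against the youth library, which covers the step between 9 and 24 months. All 20 members above the limit were higher in the adult library, where 47.3% of all entries were higher and 52.7% lower. On the log2(FPKM + 1) scale the members had a median difference of 0.41, against -0.02 for all entries. At least 1.5-fold higher were 3 members, ATP5G1, ATP5A1 and ATP5C1, and none was 1.5-fold lower. Over all entries, 5.4% were higher and 5.45% lower by this fold or more. ATP5A1 and ATP5C1 lay just past the limit, and after quantile normalization, or after scaling to a common sum without the 10 most abundant entries, only 1 member was past it.

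ATP5G1 stood highest, at 542 FPKM in adult against 298 in youth (1.82, 1.74 to 1.90). ATP5A1 was at 913 against 604 FPKM (1.51, 1.48 to 1.54), ATP5C1 at 512 against 339 FPKM (1.51, 1.46 to 1.57) and ATP5B at 978 against 667 FPKM (1.47, 1.44 to 1.49). At the low end, beside ATP5I, were ATP5E at 541 against 462 FPKM (1.17, 1.11 to 1.23) and ATP5G2 at 581 against 487 FPKM (1.19, 1.15 to 1.24). The ATP synthase subunits therefore did not share a single ratio, since the intervals of ATP5G1, of alpha, beta and gamma, and of ATP5E do not meet. Among the assembly factors the ratios ran from 1.19 for COX20 (1.09 to 1.30) to 1.42 for COX15 (1.26 to 1.60).

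Markers of other cells also differed between these libraries. All 6 macrophage markers were lower in adult, at sums of 59.2 FPKM (kid), 71.1 FPKM (youth) and 33.5 FPKM (adult). All 5 fibroblast markers were lower too, at 827 FPKM (kid), 1010 FPKM (youth) and 697 FPKM (adult). The 4 smooth muscle markers were higher in adult than in youth, at 353 against 247 FPKM, and summed to 359 FPKM in kid. The 5 matched heart markers summed to 14.03 FPKM (kid), 8.61 FPKM (youth) and 10.7 FPKM (adult), with NPPA and MYL7 listed at 0 throughout and TNNI3 the highest, at 11.2, 5.42 and 8.38 FPKM. The 5 matched adipocyte markers had sums of 189 FPKM (kid), 127 FPKM (youth) and 137 FPKM (adult), and 4 of them were higher in adult than in youth. Among these the lipid-droplet protein PLIN1 was at 13.3 FPKM (kid), 2.72 FPKM (youth) and 8.61 FPKM (adult). The adipocyte sum was lowest in youth, but not every gene of the list was. LPL was lowest in adult, at 103 FPKM (kid), 96.7 FPKM (youth) and 91.0 FPKM (adult). LEP was lowest in kid, at 0.138, 0.219 and 0.385 FPKM in the same order. The 10 matched fast-fibre markers summed to 33301 FPKM (kid), 32759 FPKM (youth) and 33326 FPKM (adult), and the 8 matched slow-fibre markers to 16555, 15693 and 16485 FPKM. Single fibre genes within these sums went opposite ways, 4 of the 10 fast and 4 of the 8 slow ones being higher in adult than in youth. The ratio of adult over youth was 0.444 (0.440 to 0.447) for the fast myosin MYH1. The highest ratios of their lists were 1.73 (1.72 to 1.74) for the fast oxidative myosin MYH2 and 2.33 (2.24 to 2.44) for the slow light chain MYL3. In the fast list TNNT3, MYLPF (1.14, 1.13 to 1.15) and MYL1 (1.12, 1.11 to 1.13) were higher in adult too. Its other genes, ACTN3 (0.774), ATP2A1 (0.899), CASQ1 (0.955) and the low PVALB (0.105) and MYH4 (0.207), were lower. In the slow list TNNT1 (1.21), TNNI1 (1.11) and TNNC1 (1.09) were higher in adult too. Its genes MYL2 (0.915), MYH7B (0.860), ATP2A2 (0.947) and CASQ2 (0.786) were lower in adult. Whether fibre types shifted between these libraries was not tested. The part of these cells in the members' values was not tested. Among the other 616 entries with a mean of at least 100 FPKM, 343 were higher and 273 lower in adult than in youth, with a median of 0.04.

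**Figure D2:**
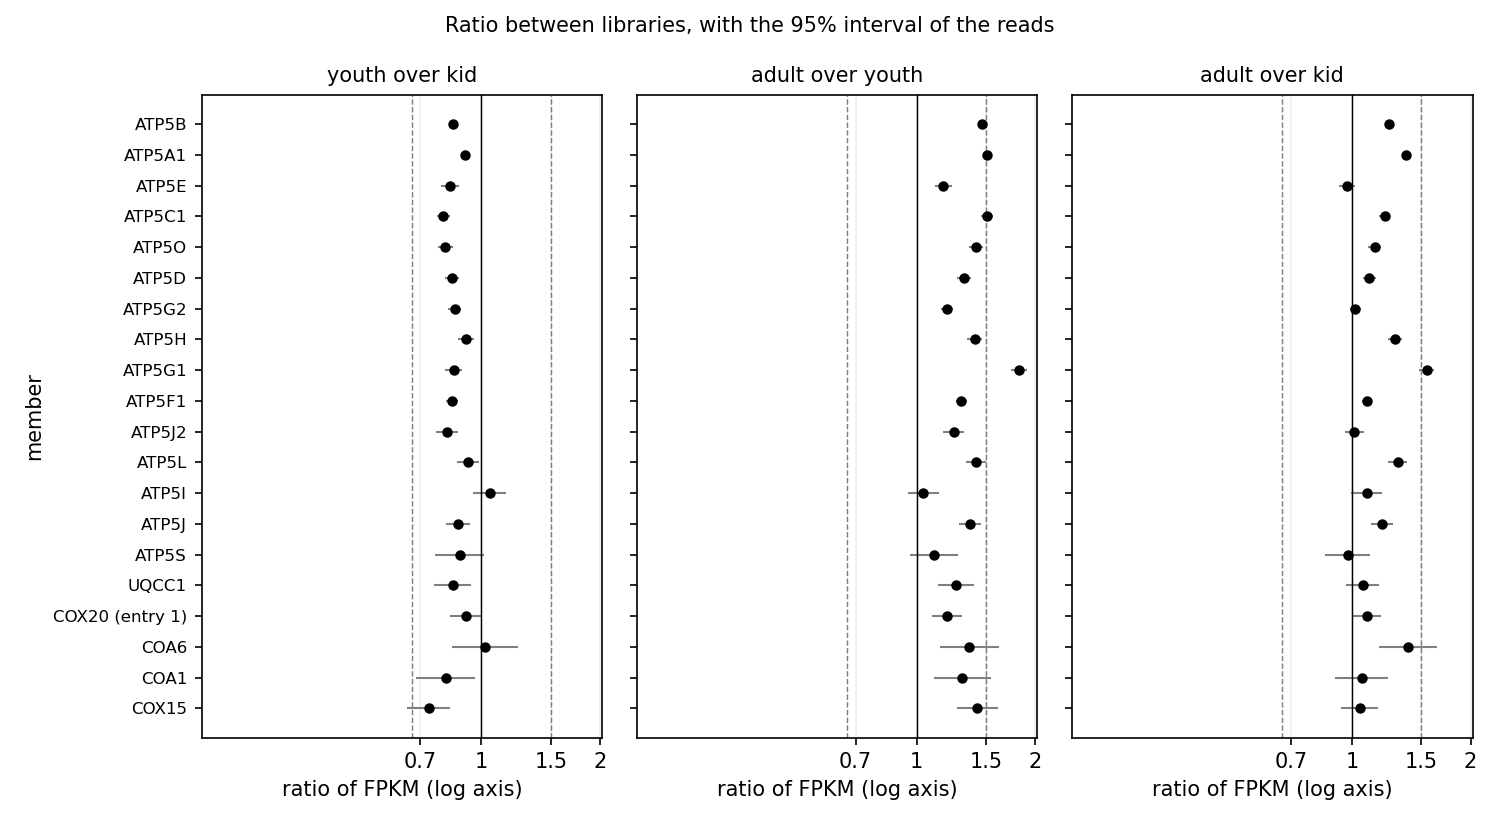
Ratio of FPKM (log axis) for youth over kid, adult over youth and adult over kid, for the 20 members with a mean of at least 1 FPKM. Points are ratios between 2 libraries, bars the exact 95% interval of the reads (counting error only), the solid line a ratio of 1 and the dashed lines a 1.5-fold difference. All 20 points lie right of 1 for adult over youth, from 1.04 for ATP5I to 1.82 for ATP5G1.

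The adult library was then set against the kid library to span the whole interval from 2 to 24 months. Of the 20 members, 18 were higher in the adult library and 2, ATP5E and ATP5S, were lower, where 37.5% of all entries were higher and 62.5% lower. The median was 0.14 on the log2(FPKM + 1) scale, against -0.10 for all entries. Only ATP5G1 was at least 1.5-fold higher, at 542 FPKM in adult against 350 in kid (1.55, 1.48 to 1.61), and none was 1.5-fold lower. Over all entries, 2.6% were higher and 6.64% lower by this fold or more. With size factors these shares were 4.34% and 4.53%, all 20 members were higher in adult, and their median was 0.25.

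ATP5A1 (1.37, 1.35 to 1.40), ATP5L (1.31, 1.24 to 1.38) and ATP5H (1.28, 1.23 to 1.34) followed ATP5G1 among the subunits in adult over kid. COA6 was the assembly factor with the highest ratio, at 30.0 FPKM in adult against 21.6 in kid (1.39, 1.17 to 1.65), and COX15 that with the lowest (1.05, 0.940 to 1.16). ATP5G2 (1.02, 0.987 to 1.06) and ATP5J2 (1.02, 0.960 to 1.07) had intervals that included 1. Each pair of the 3 comparisons shares a library, so they are not independent of each other.

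Entries worded as subunits of complex IV, all with "-like", came to 27. They include repeated wordings of the same subunit and COX7A2L, worded as a protein related to subunit 7A. Of the 27 entries, 14 were above the limit of 1 FPKM, and the rest were at 0 or close to it, none above 1.09 FPKM. The entries worded as subunit 6C were among the rest, so that subunit is missing from the 14. In adult against youth all 14 were higher, 6 of them at least 1.5-fold, with a median of 0.52. In youth against kid 13 of 14 were lower (median -0.21), and in adult against kid 12 of 14 were higher (median 0.38). Over all entries, 47.3% were higher and 5.4% at least 1.5-fold higher in adult than in youth. The shares of all entries were 64.3% lower in youth than in kid and 37.5% higher in adult than in kid. COX4I1, which regulates the enzyme's activity, was the most abundant by the mean over the libraries, at 760 FPKM (kid), 795 FPKM (youth) and 1087 FPKM (adult). It was the only one of the 14 that was higher in youth than in kid (1.05, 1.01 to 1.08), though COX6A1 was higher too under the 3 other scalings. The ratios of COX4I2 and of COX7A2L (0.945, 0.835 to 1.07) were not checked under those scalings. COX5B, a zinc-binding subunit, was at 691, 605 and 1021 FPKM in kid, youth and adult, and its adult over youth ratio was 1.69 (1.63 to 1.75).

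Muscle forms of complex IV subunits were set beside the widespread forms. COX6A2, the heart and skeletal muscle form of subunit 6A, was at 842 FPKM (kid), 652 FPKM (youth) and 927 FPKM (adult). COX6A1, the widespread form, was at 36.8, 36.0 and 52.2 FPKM. COX6A2 therefore made up 95.8% of the pair in kid (95.4 to 96.2), 94.8% in youth (94.2 to 95.3) and 94.7% in adult (94.2 to 95.1). Subunit 7A was more mixed. COX7A1, its muscle form, was at 96.1, 87.5 and 160 FPKM, and COX7A2, the widespread form, at 65.3, 56.0 and 117 FPKM in kid, youth and adult.

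COX7A1 made up 59.5% of its pair in kid (57.1 to 62.0), 61.0% in youth (58.3 to 63.6) and 57.7% in adult (56.0 to 59.4), so the 3 intervals meet. Both genes were higher in adult than in youth, COX7A1 with a ratio of 1.82 (1.71 to 1.95) and COX7A2 with 2.09 (1.87 to 2.35), the highest of the complex IV subunits. The intervals of both ratios meet. COX4I2, a form of subunit 4 best known from lung, was at 2.34, 2.03 and 2.12 FPKM, no more than 0.307% of its pair with COX4I1 in any library. COX8A, the widespread form of subunit 8, was at 39.6 FPKM (kid), 31.5 FPKM (youth) and 43.9 FPKM (adult). COX6B2, the testis form of subunit 6B, was at 0.176 FPKM (kid), 0.187 FPKM (youth) and 0.152 FPKM (adult). The smallest whole count that fits these values is 1 read in each library.

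A second entry with the wording of COX4I1 did not follow the first. It was at 119 FPKM (kid), 50.2 FPKM (youth) and 92.9 FPKM (adult). In youth it stood at 0.421 (0.381 to 0.464) of the kid level, the only complex IV subunit entry that was 1.5-fold lower there, and in adult at 1.85 (1.67 to 2.05) of the youth level. Its share of the pair was 13.6% in kid, 5.94% in youth and 7.87% in adult. Whether the entries share reads is not known here, so both are uncertain.

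**Figure D3:**
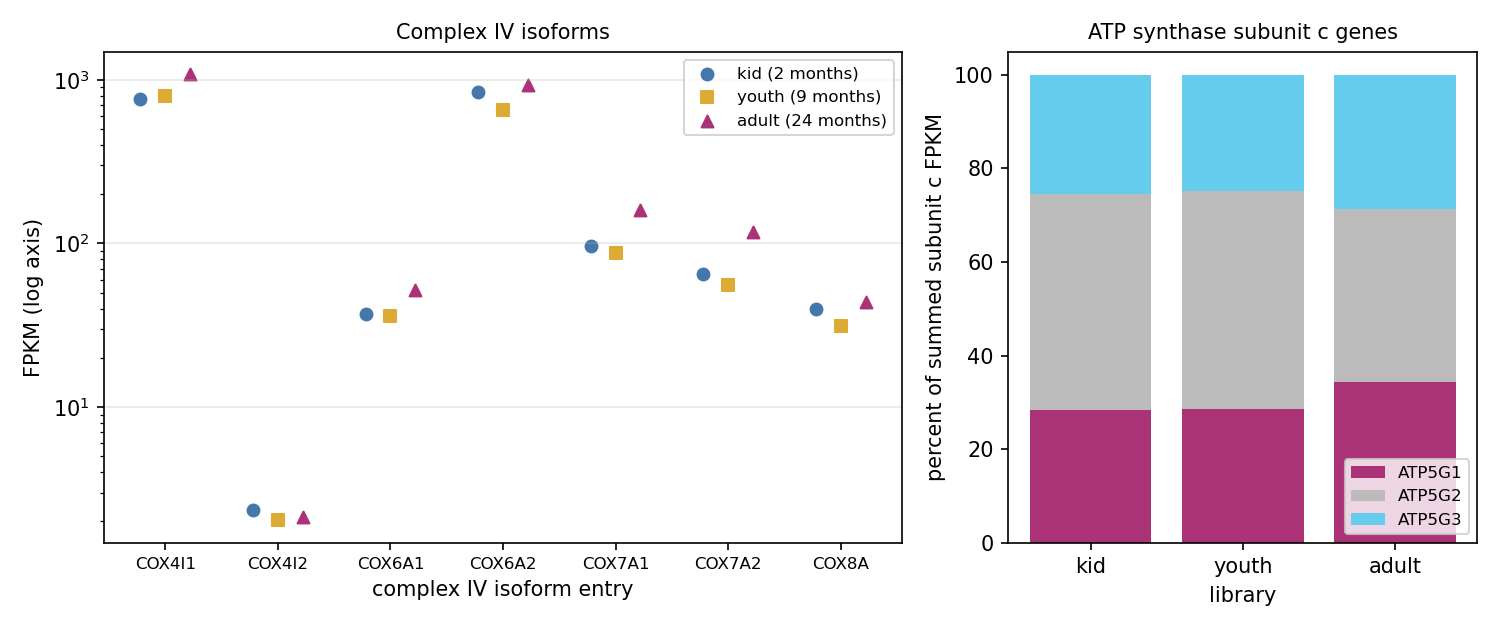
Left, FPKM (log axis) of the complex IV isoform entries in the kid, youth and adult libraries, 1 point per library. Right, percent of the summed FPKM of the subunit c genes held by ATP5G1, ATP5G2 and ATP5G3 in each library, with ATP5G1 at 28.4% (kid), 28.5% (youth) and 34.4% (adult).

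Complex IV assembly entries worded with "-like" were more mixed. Of 8 above the limit, 5 were higher and 3 lower in adult than in youth (median 0.17). All 14 subunit entries of the same wording were higher, as were 47.3% of all entries. The 3 lower ones were COX17, COA4 and COA5, and all had intervals that included 1. COX17, the copper chaperone of complex IV and the most abundant of them, was at 325 FPKM (kid), 309 FPKM (youth) and 307 FPKM (adult), with an adult over youth ratio of 0.992 (0.933 to 1.05).

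Complex III had 9 subunits above the limit. All 9 were higher in adult than in youth, 4 at least 1.5-fold (median 0.57), where 47.3% and 5.4% of all entries were. All 9 were lower in youth than in kid (median -0.14), against 64.3% of all entries. All 9 were higher in adult than in kid (median 0.36), against 37.5% of all entries. UQCRB, a ubiquinone-binding subunit and the most abundant, was at 638 FPKM (kid), 585 FPKM (youth) and 762 FPKM (adult). UQCRC1, a core subunit, had the highest adult over youth ratio of the complex, at 337 against 203 FPKM (1.66, 1.60 to 1.72), and UQCRC2, its partner in the core, the lowest, at 317 against 249 FPKM (1.27, 1.23 to 1.31). UQCRFS1, the iron-sulfur subunit, was at 332 FPKM (kid), 328 FPKM (youth) and 517 FPKM (adult), and its youth over kid ratio of 0.987 (0.948 to 1.03) has an interval that includes 1. CYC1, the heme-bearing subunit that hands electrons to cytochrome c, was at 298 FPKM (kid), 291 FPKM (youth) and 432 FPKM (adult). Its youth over kid ratio of 0.976 (0.938 to 1.02) moved to the other side of 1 under all 3 other scalings, as did that of COX6A1. The other complex III subunits were not checked gene by gene under those scalings.

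Cytochrome c and the modifiers of ATP synthase had another order of the libraries. CYCS, cytochrome c itself, was at 243 FPKM (kid), 269 FPKM (youth) and 430 FPKM (adult). ATPIF1, the protein that blocks ATP synthase from running backwards, was at 117, 123 and 199 FPKM. USMG5, a small subunit of the ATP synthase dimer, was at 244, 281 and 396 FPKM. All 3 were thus highest in adult and lowest in kid, though for ATPIF1 the youth over kid ratio of 1.05 (0.958 to 1.16) has an interval that includes 1. As a share of the beta subunit's FPKM, ATPIF1 was at 14.8% in kid, 18.5% in youth and 20.4% in adult, and USMG5 at 31.0%, 42.1% and 40.4%.

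**Figure D4:**
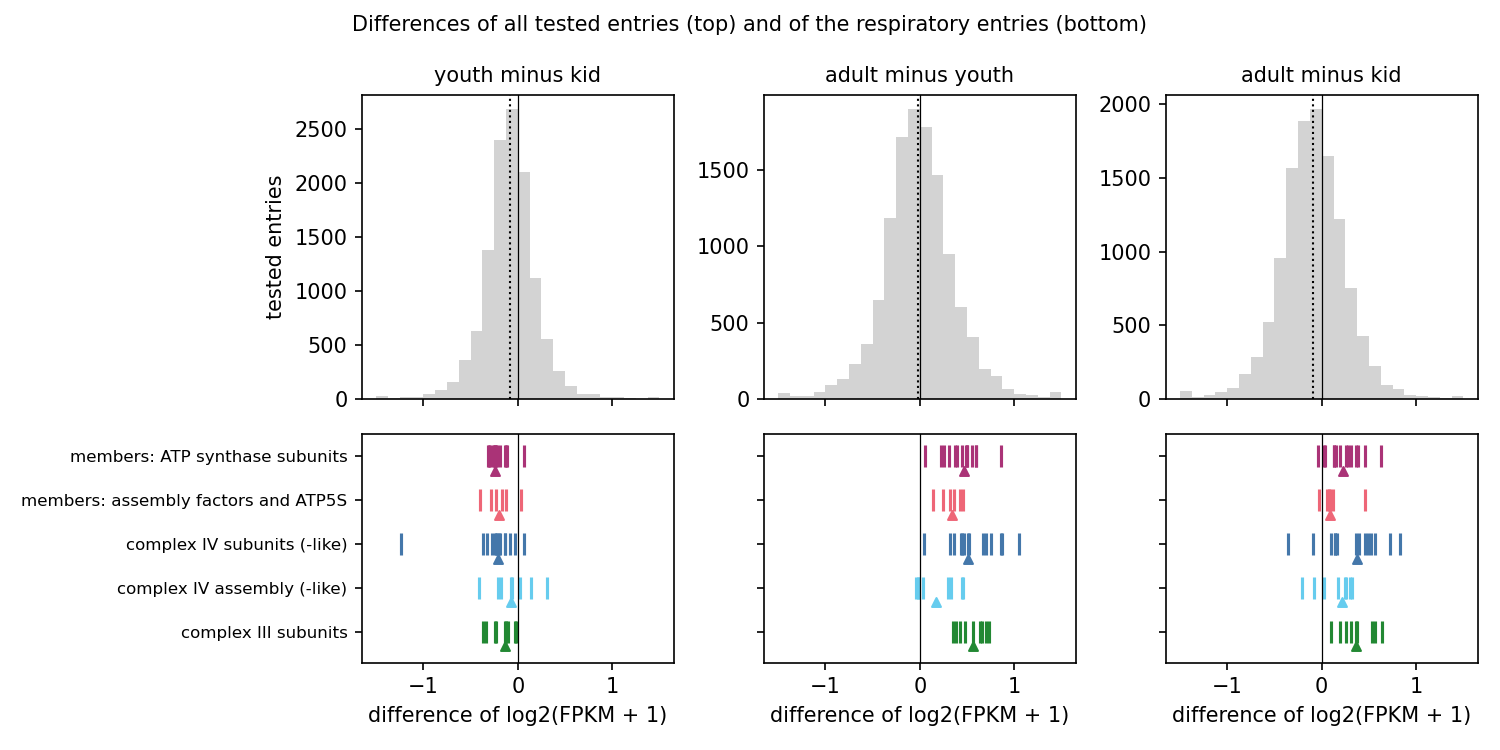
Differences of log2(FPKM + 1) for youth minus kid, adult minus youth and adult minus kid. The upper row shows how many of the 12121 entries with a mean of at least 1 FPKM fall in each bin (values beyond 1.5 either way are drawn in the outermost bins, and the dotted line is their median). In the lower row each tick is 1 entry and the triangle the median of its group, with the ATP synthase subunits at 0.47 for adult minus youth against -0.02 for all entries.

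Summed by complex, the 14 ATP synthase subunits, the complex IV subunits and the complex III subunits were each lowest in youth and highest in adult. Adult over youth, the sums had ratios of 1.37 for ATP synthase (7105 against 5173 FPKM), 1.46 for complex IV (5789 against 3971 FPKM) and 1.45 for complex III (3675 against 2542 FPKM). Adult over kid, the ratios were 1.19, 1.26 and 1.29. Youth over kid, they were 0.863, 0.865 and 0.894. The ATP synthase sum leaves out ATP5G3 and USMG5, which the chosen wording does not cover. With these added, its ratios were 1.39 (adult over youth), 1.21 (adult over kid) and 0.872 (youth over kid). Whether these complexes differ from each other was not tested, since each stage has a single library.

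Other lists of the same pathway were described by their counts. Beside each of them, 47.3% of all entries were higher and 5.4% at least 1.5-fold higher in adult than in youth. In youth against kid 64.3% of all entries were lower. All 37 complex I subunits were higher in adult than in youth, 10 at least 1.5-fold (median 0.45), and 32 were lower in youth than in kid. NDUFA7, an accessory subunit, had the highest difference, at 190 against 111 FPKM (1.72, 1.58 to 1.87). All 4 complex II subunits were higher in adult, SDHA, the flavin-bearing subunit, at 400 against 259 FPKM (1.54, 1.504 to 1.59) and SDHB, the most abundant by the mean over the libraries, at 367 against 301 FPKM. Complexes I and II therefore lay on the same side of the youth library as the members.

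Of the 5 matched complex III assembly factors all were higher in adult than in youth, with TTC19 at 16.1 against 10.4 FPKM (1.54, 1.34 to 1.79). Its difference on the log2(FPKM + 1) scale, 0.58, fell short of 1.5-fold, so none of the list was past that limit. Of the 24 matched complex IV assembly factors 21 were higher and 3 lower, 4 of them at least 1.5-fold higher (median 0.30). SCO2, which carries copper to complex IV, was at 15.03 against 7.26 FPKM when its pair of entries was summed. All 6 matched genes of the list drawn up for ATP synthase assembly and inhibition were higher, and ATPIF1 was the only one past 1.5-fold. For ATPAF1 the interval included 1 (1.03, 0.967 to 1.105). The list also holds DMAC2, which is a gene of complex I assembly. These lists share COA1, COA6, COX15, COX20 and UQCC1 with the members. The complex IV list also repeats the 8 assembly entries worded "-like" that were described above, and its 3 lower genes are again COX17, COA4 and COA5.

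In the list of inner membrane organisation all 9 genes above the limit were higher in adult than in youth, though not all beyond counting error. IMMT, the core protein of the cristae junctions, was at 68.8 against 37.3 FPKM (1.84, 1.73 to 1.96), and MICOS10, a small subunit of the same assembly, at 207 against 149 FPKM (1.38, 1.29 to 1.48). For OPA1 (17.99 against 17.93 FPKM, 1.003, 0.921 to 1.09) and APOOL (15.7 against 14.98 FPKM, 1.05, 0.892 to 1.23) the intervals included 1. In adult against kid 7 genes of this list were higher and 2 lower. The lower ones were OPA1 (0.891, 0.822 to 0.967) and APOOL (0.828, 0.715 to 0.960). Of 10 general mitochondrial genes above the limit, 9 were higher in adult than in youth. The chaperone HSPD1 was lower, at 90.3 against 101 FPKM (0.893, 0.836 to 0.954). SLC25A4, the muscle ADP/ATP carrier that exports the product of ATP synthase, was the most abundant, at 2778 FPKM in adult against 1513 in youth (1.84, 1.81 to 1.86).

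Regulators of oxidative genes did not move in 1 direction. Of 17 in the list, 10 were higher in adult than in youth, 5 of them at least 1.5-fold, and 7 were lower (median 0.14). Over all entries, 47.3% were higher, 5.4% at least 1.5-fold higher, and 52.7% were lower. The coactivator PPARGC1A was at 26.1 FPKM (kid), 43.3 FPKM (youth) and 130 FPKM (adult), and the nuclear receptor ESRRG at 12.2, 3.40 and 21.4 FPKM. ESRRA, the related receptor, was at 45.7 FPKM (kid), 36.3 FPKM (youth) and 80.4 FPKM (adult), with a ratio of 2.21 (2.09 to 2.34) for adult over youth. ESRRA and ESRRG were thus lowest in youth and highest in adult, and so were PPARGC1B, PPARA and TFB1M of the same list. The rest of the 17, PPARGC1A among them, had other orders. Over all entries above the limit, 19.9% were lowest in youth and highest in adult.

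Other regulators bind the promoters of respiratory genes or of mitochondrial DNA. NRF1 was at 5.51 FPKM (kid), 3.75 FPKM (youth) and 4.62 FPKM (adult), with an adult over youth ratio of 1.23 (0.982 to 1.55). GABPA was at 12.9, 11.0 and 9.99 FPKM (0.908, 0.791 to 1.04), and TFAM, which packs and transcribes mitochondrial DNA, at 11.5, 11.6 and 11.6 FPKM (0.997, 0.841 to 1.18). All 3 intervals for adult over youth included 1.

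**Figure D5:**
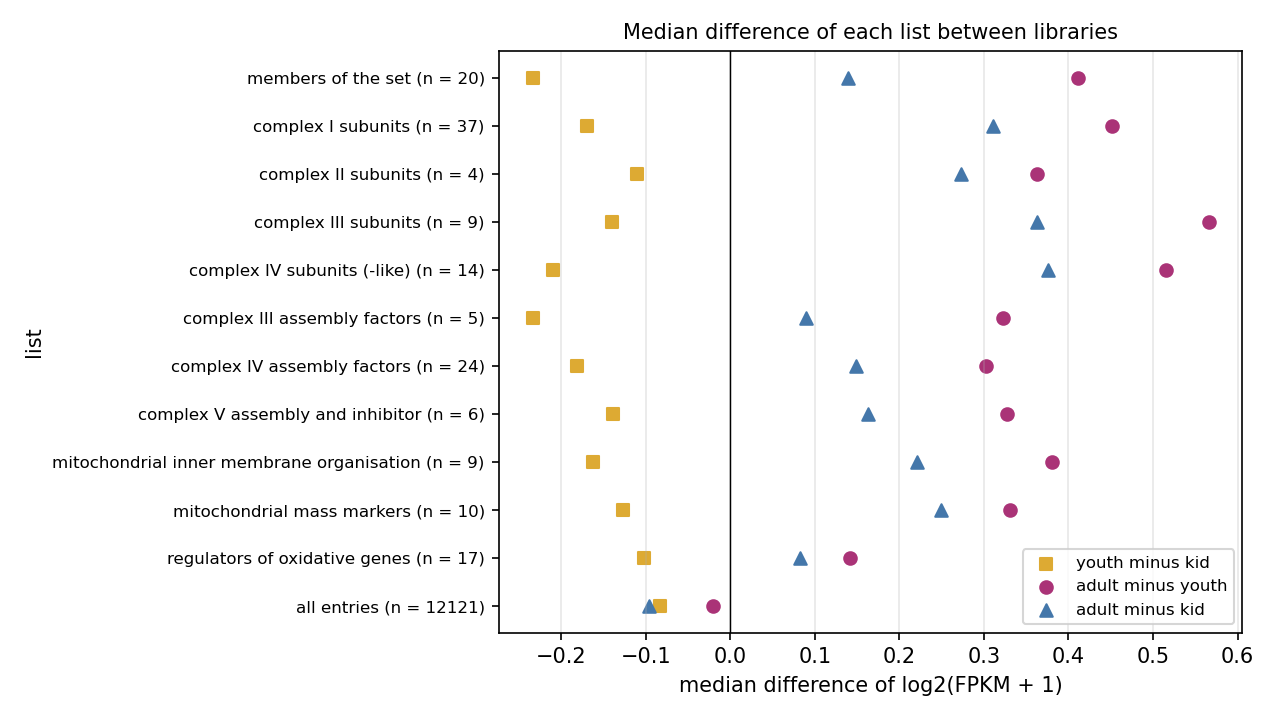
Median difference of log2(FPKM + 1) of each list for youth minus kid, adult minus youth and adult minus kid, with n the number of entries with a mean of at least 1 FPKM. The members are at 0.41 for adult minus youth, the complex III subunits at 0.57, the regulators at 0.14 and all entries at -0.02.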

How the data were processed

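The authors deposited a single FPKM table, 1 column for each stage. The submitters' processing notes list FastQC, TopHat2 and DESeq without saying how each was used. Genome build, annotation and the counting of multiply matching reads: not given in the sources used here. Entries were named by gene number and product text, and 21743 of 24689 matched the goat assembly ARS1.2, used for names only. Sequences of promoters and proteins were not used here.

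Whole reads were recovered from the FPKM steps for all 16054 entries above 0 in 3 libraries, within 5e-05 of a read, and for 1157 above 0 in 2. The smallest length that gave whole reads was taken, so the reads are the smallest counts that fit. Entries with a mean of at least 1 FPKM (12121) were compared on log2(FPKM + 1), a scale that understates differences of low genes. A difference of at least 1.5-fold on it was counted. Intervals were computed with scipy 1.17.1 and tables with pandas 2.3.3 in Python 3.11.15. The steps were tested on simulated reads. Alternatives were other pseudocounts, filters, scalings, folds and wordings. The members, lists and thresholds were chosen with earlier results of these data known. Named were isoform pairs, the most abundant member and the highest and lowest ratios per complex, members under 1 FPKM or against their complex, and 2 genes per list, of which 1 is not reported here. The other genes named were chosen after their values were seen.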

Additional observations from a re-analysis of the deposited data

How the results depend on the processing

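The members' median difference kept its sign under every scaling, pseudocount, filter and wording tried. It lay between -0.24 and -0.14 in the youth to kid comparison, between 0.34 and 0.45 in adult to youth and between 0.13 and 0.25 in adult to kid, where size factors gave 0.25. The number of members 1.5-fold apart was 0, 3 and 1 in these comparisons. It was 1 for adult against youth with quantile normalization and 1 with a common sum without the 10 most abundant entries. With entries worded "-like" kept it was 1, 9 and 3 for the 3 comparisons in that order. At the lower fold limit tried it was 1, 14 and 5, and at 2-fold it was 0 in all 3. These 2 settings change the limit itself, and the cause of the other changes was not tested. Single ratios and shares stayed within their counting interval in 459 cases and left it in 105. These cases include the other pseudocounts, which hardly move abundant genes. No ratio that was at least 1.5-fold apart changed to the other side of 1. Smaller ones did, and that of CYC1 for youth over kid also left its interval with size factors and with quantile normalization. From reads that were not divided by length, COX6A2 made up 94.1%, 92.7% and 92.5% of its pair in kid, youth and adult, COX7A1 74.2%, 75.3% and 72.7%, and COX4I2 0.917%, 0.763% and 0.584%. No replicate could be left out, since each stage has 1 library. The 20 compared members had at least 215 reads in each library, and the second COX20 entry had 4 to 5.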
